A study of Homo sapiens with 6 samples.

Results

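The messenger RNA levels of 45 human genes of DNA repair were examined in OE19 cells, a line derived from oesophageal adenocarcinoma, after inhibition of the microRNA miR-451a. The list was given by gene name and no threshold on a value was applied. It comprises 10 genes of end joining, 5 of mismatch repair, 15 of base excision repair, 12 of nucleotide excision repair and 3 of direct reversal. In the table of 13345 genes, 44 of the 45 had a row, and all 44 passed the filter (a mean value of at least 10), which kept 12723 genes in all. NHEJ1, an end-joining factor that bridges DNA ends, has no value here. None of the 44 genes passed the test between the groups, and their levels in each sample are described gene by gene.

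OE19 cells were transfected with 1 of 2 locked nucleic acid oligonucleotides, the miRCURY Power inhibitor of miR-451a or its Negative Control A. Each oligonucleotide was given in 3 independent experiments, numbered 1 to 3 in the labels, which left 3 samples per group. All 6 samples thus share the line, the transfection and an inhibitor-type oligonucleotide, and none was untransfected. The labels describe an irradiation protocol, but it is not stated whether it was applied to the cells that were sequenced. The level of miR-451a itself was not analysed here, and all statements hold for 1 cell line.

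DNA repair is divided by the kind of lesion. End joining ligates the ends of a double-strand break directly and is the route for most X-ray breaks through much of the cell cycle. Mismatch repair removes the errors of DNA polymerases. Base excision repair removes single damaged bases and mends single-strand breaks, whereas nucleotide excision repair cuts out a short stretch of a strand that carries a bulky lesion, such as those of ultraviolet light or platinum drugs. Direct reversal enzymes restore the damaged base without cutting the strand. The comparison addresses whether the messenger RNAs of these routes differ after miR-451a inhibition, in a study of resistance to radiation.

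The deposited values are a normalised signal per gene, adjusted by the authors for gene length and GC content and scaled between samples, and they have no unit. Levels of different genes are compared on that scale only. The values are whole-number adjusted counts multiplied by 1 factor per sample, and the adjusted counts summed to between 14084387 and 18726440 per sample. Those of the repair genes ranged from 18 to 15658 in a sample. Of 12 markers of columnar epithelium, 11 were tested, with EPCAM at 9271 to 15001 and KRT8 at 48381 to 59299. The mean values of the 11 ran from 89.2 (CDX2, at 40.3 to 132.8) to 75008 (ERBB2), and VIL1 lay at 1398 to 4521. CDX1 had no row. Of 5 squamous markers 3 were tested (KRT6A, KRT14 and DSG3, with mean values of 237.3, 53.3 and 48.4), while KRT5 had no row and TP63 had a mean value of 4.77, the blood markers PTPRC, CD3E, CD14, HBB and ITGAM had no row, and of 8 fibroblast and endothelial markers 1 was tested (COL1A1, mean value 281.6). The third inhibitor sample stood apart. A value more than 2-fold away from the median of its 5 counterparts was found there in 16.0% of all tested genes, against 2.09%, 2.04% and 4.16% in control samples 1, 2 and 3 and 3.40% and 2.41% in inhibitor samples 1 and 2. The plot of fitted differences shows each repair gene with and without that sample, and values without it are given for many of them.

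No repair gene passed an adjusted p of 0.05 in limma's test over all genes, in which 0% of the 12723 genes were called. The adjusted p of the repair genes ran from 0.899 to 0.999. At an unadjusted p below 0.05, 0 of the 44 were called, where 119 of all genes (0.935%) were. The smallest unadjusted p of the 44 was 0.0875, that of PRKDC. Of the 44 genes, 23 had a fitted difference above 0, which is 52.3% of them, beside 49.4% of all genes. The median log2 difference (inhibitor minus control, on log2(value + 1)) was 0.006 over the repair genes and -0.003 over all genes. An exact permutation test over 3 against 3 samples cannot give a two-sided p below 0.1 for a single gene. In such bulk samples, fewer cells of a kind and less RNA per cell cannot be told apart.

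**Figure D1:**
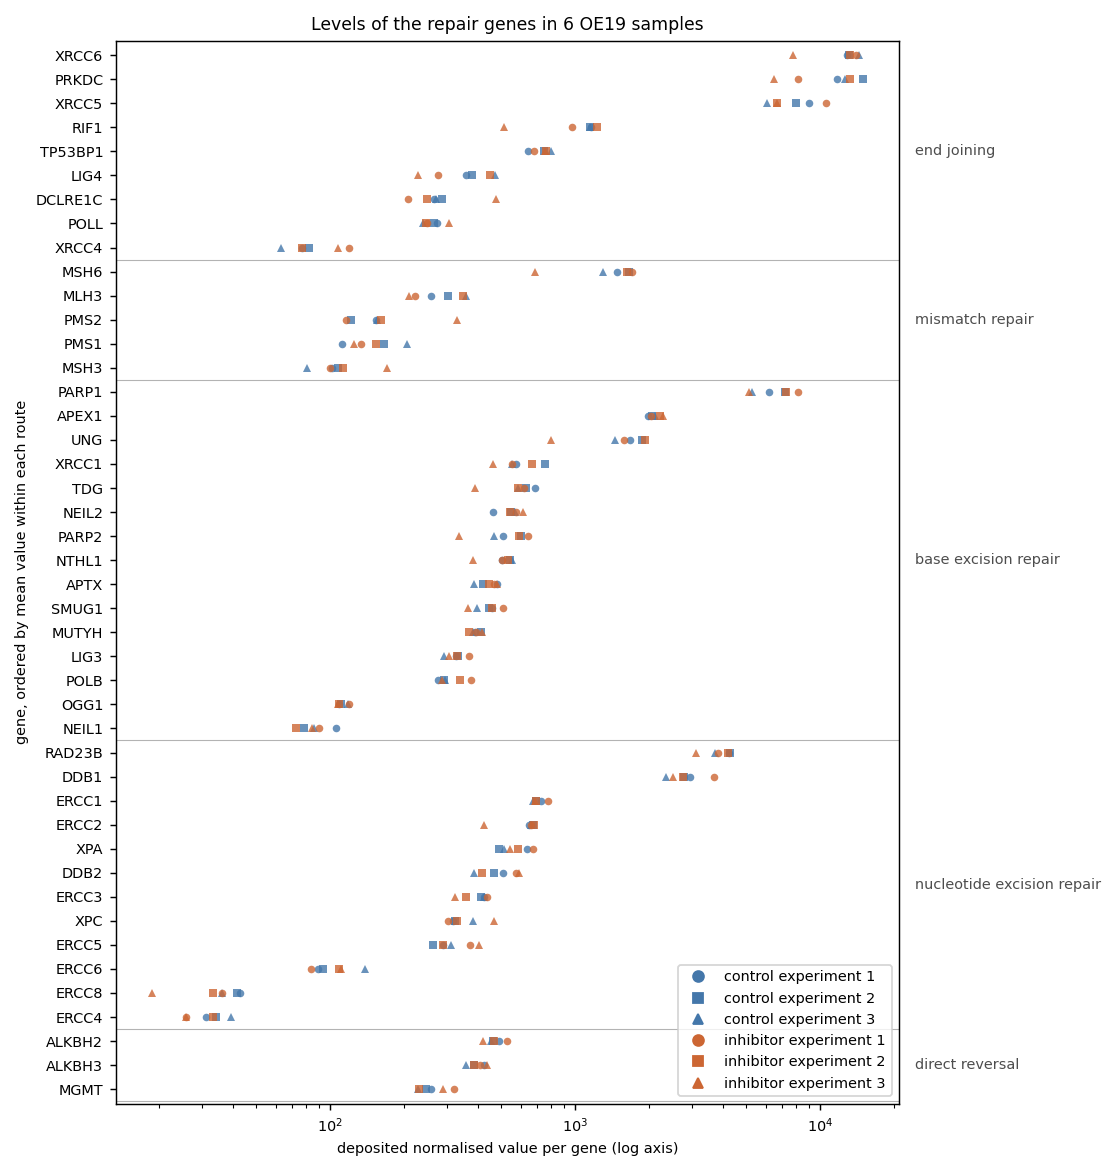
Deposited normalised value (log axis) of the 44 measured repair genes in the 6 OE19 samples, grouped by route. Blue marks are negative control and orange marks miR-451a inhibitor samples, and the shape gives the experiment. The genes span mean values from 31.6 (ERCC4) to 12584 (XRCC6), and within nearly every gene the colours are interleaved.

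The levels of the repair genes spread over most of the range of the table. Their mean values over the 6 samples had a median of 442.1, beside 434.7 for all tested genes. In the highest 10% of all genes were 6 of them, namely XRCC6, PRKDC and XRCC5, the components of the DNA-dependent protein kinase, PARP1, the main sensor of single-strand breaks, and the damage recognition genes RAD23B and DDB1. At the other end were ERCC4 and ERCC8 of nucleotide excision repair, with mean values of 31.6 and 34.8. By route, the median of the genes' mean values was 730.3 for end joining, 502.2 for base excision, 443.8 for nucleotide excision, 401.2 for direct reversal and 173.5 for mismatch repair.

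Between the 3 control samples the values of a repair gene varied little. The median coefficient of variation of the 44 genes was 10.7% in the control and 16.8% in the inhibitor samples, beside 10.4% and 21.0% for all genes. It was larger in the inhibitor samples in 36 of the 44 genes and in 78.1% of all genes. By route it was 11.1% (control) and 29.1% (inhibitor) in end joining and 14.8% and 29.5% in mismatch repair. It was 7.89% and 13.5% in base excision, 9.6% and 16.3% in nucleotide excision and 5.96% and 11.7% in direct reversal.

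The promoters of 5 genes, chosen by their values in these samples, are shown as description, and no result below rests on them. RIF1, MSH6 and UNG were lower by a factor of over 2 in the third inhibitor sample than in the median of the others, ERCC8 was the only repair gene whose groups did not overlap, and ERCC5 was the nucleotide excision gene with the most positive difference. PMS2, which was higher by a factor of 2.14 in the third inhibitor sample, is not shown. Each run is 300 bases from RefSeq on GRCh38.p14, from 250 bases before to 50 bases after a start of transcription, read 5′ to 3′ on the strand of the gene. Capitals mark matches, on either strand, to CCAAT (the NF-Y motif), CCGGAAG (an ETS motif) and TTTCCCGC (an E2F motif). The MSH6 run lies at chr2:47782895-47783194 (plus strand), the UNG run at chr12:109097922-109098221 (plus strand), the RIF1 run at chr2:151409652-151409951 (plus strand), the ERCC8 run at chr5:60945021-60945320 (minus strand) and the ERCC5 run at chr13:102845782-102846081 (plus strand).
MSH6: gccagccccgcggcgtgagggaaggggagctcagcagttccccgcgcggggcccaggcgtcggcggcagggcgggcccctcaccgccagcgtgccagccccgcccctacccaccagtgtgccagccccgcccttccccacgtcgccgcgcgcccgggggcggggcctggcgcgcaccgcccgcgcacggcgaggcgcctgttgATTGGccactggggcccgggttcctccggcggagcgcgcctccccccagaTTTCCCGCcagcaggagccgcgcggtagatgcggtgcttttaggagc
UNG: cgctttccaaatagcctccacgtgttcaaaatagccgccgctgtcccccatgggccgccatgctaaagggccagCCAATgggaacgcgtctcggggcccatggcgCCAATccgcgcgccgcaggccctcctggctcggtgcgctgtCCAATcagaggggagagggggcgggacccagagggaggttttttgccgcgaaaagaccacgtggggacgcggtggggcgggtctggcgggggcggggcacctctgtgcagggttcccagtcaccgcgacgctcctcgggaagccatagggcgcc
RIF1: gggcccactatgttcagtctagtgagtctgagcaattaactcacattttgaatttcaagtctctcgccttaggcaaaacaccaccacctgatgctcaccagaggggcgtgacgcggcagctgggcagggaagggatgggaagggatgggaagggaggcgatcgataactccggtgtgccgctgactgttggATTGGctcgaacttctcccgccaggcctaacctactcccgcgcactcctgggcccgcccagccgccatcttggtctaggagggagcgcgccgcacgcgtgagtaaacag
ERCC8: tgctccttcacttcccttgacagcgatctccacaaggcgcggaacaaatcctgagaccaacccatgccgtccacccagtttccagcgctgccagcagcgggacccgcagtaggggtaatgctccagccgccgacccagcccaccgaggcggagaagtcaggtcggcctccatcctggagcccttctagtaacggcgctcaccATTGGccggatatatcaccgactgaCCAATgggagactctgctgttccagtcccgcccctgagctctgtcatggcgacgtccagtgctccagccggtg
ERCC5: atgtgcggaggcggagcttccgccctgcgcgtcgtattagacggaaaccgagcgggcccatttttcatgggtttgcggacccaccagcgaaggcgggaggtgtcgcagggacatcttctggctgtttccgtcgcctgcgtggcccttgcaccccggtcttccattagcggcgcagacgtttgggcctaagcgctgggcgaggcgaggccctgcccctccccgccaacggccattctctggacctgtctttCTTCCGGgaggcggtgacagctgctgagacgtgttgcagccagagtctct
RefSeq lists 4 starts for MSH6 and 2 for UNG, and 1 of each is shown, chosen for the most marked matches.

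A promoter entry was found for 39 of the 44 genes and for 9724 of the tested genes. A gene was counted for a motif when any of its entries held the letters. The letters CCAAT or their reverse complement stood in 24 of the 39 (61.5%) and in 42.8% of the 9724. In the runs shown, UNG held 3 of these matches, ERCC8 held 2, and RIF1 and MSH6 held 1 each. The ETS letters CCGGAAG stood in 14 (35.9%), ERCC5, ERCC4, LIG4 and XRCC4 among them, and in 22% of the 9724. The E2F letters TTTCCCGC stood in 2 (5.13%), MSH6 and XPC, and in 3.24% of the 9724. The Sp1 letters GGGCGG stood in 32 (82.1%) and in 76.5%. The letters TATAAA stood in 1 (2.56%), DCLRE1C, and in 8.35%. Matches of different motifs can overlap, as the E2F letters with the reverse complement of the Sp1 letters. The median GC content of the windows was 63.7% for the repair genes and 64.7% for all. These counts describe letters in a window and were not tested.

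End joining begins with Ku, the ring of XRCC5 and XRCC6 that slides onto a broken end and recruits PRKDC, the catalytic subunit of the DNA-dependent protein kinase. Of the 9 measured genes, 5 had a fitted difference above 0 and 4 below, none passed limma's test, and the median log2 difference was 0.001. XRCC6 (GRCh38 chromosome 22, 41621295 to 41664041) had the highest mean value of all repair genes, with 12848, 13124 and 14465 in control samples 1, 2 and 3 and 14036, 13252 and 7782 in inhibitor samples 1, 2 and 3. The first pair of inhibitor samples lay within the control range, and the third lay below every control. The log2 difference of XRCC6 was -0.25 ± 0.26 (SE, n = 3 per group; limma adjusted p 0.899), and it was 0.02 without the third inhibitor sample. Its partner XRCC5 averaged 7695.8 ± 1473.1 with the control and 7972.2 ± 2228.7 with the inhibitor (SD, n = 3). The XRCC5 value in the third inhibitor sample, 6674.5, lay within the control range of 6095 to 8994, although XRCC6 lay below its own.

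PRKDC had values of 11754, 15001 and 12612 in the control samples and 8147.5, 13244 and 6465 in the inhibitor samples. The inhibitor sample was the lower of the pair in each experiment, but inhibitor sample 2 lay above control samples 1 and 3, so the groups overlapped. The fitted log2 difference was -0.56 ± 0.28 (SE), the most negative of the 44 genes, with a limma adjusted p of 0.899. The differences within experiments 1, 2 and 3 were -0.53, -0.18 and -0.96, and the fit gave -0.33 without the third inhibitor sample and -0.85 without the second (limma unadjusted p 0.00655, adjusted p 0.467). With the experiment as a replicate block, the limma unadjusted p of PRKDC was 0.045 and its adjusted p 0.848. With the ranks of a sample counted in blocks of 15 genes, PRKDC lay in blocks 7 to 22 from the top. The next lower distinct value of the same sample was smaller by a factor of 1.002 to 1.009. PRKDC and PARP1 shared the value 8147.5 in inhibitor sample 1.

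The remaining genes of end joining process and ligate the ends. XRCC4, the scaffold of the ligase, was the lowest of the route, with 77.1, 82.2 and 63.0 in the control and 119.8, 76.9 and 107.9 in the inhibitor samples. Inhibitor samples 1 and 3 lay above all controls and sample 2 lay among them. Its difference of 0.43 ± 0.25 (SE) was the most positive of the 44 genes (limma adjusted p 0.899). LIG4, the ligase that XRCC4 holds, had a difference of the opposite sign, -0.39 ± 0.26 (SE), with mean values of 403.4 ± 60.6 and 318.5 ± 116 (SD, n = 3). The LIG4 difference was -0.18 with inhibitor sample 3 left out and was -0.67 with inhibitor sample 2 left out (limma unadjusted p 0.0126, adjusted p 0.467), and that of XRCC4 was 0.38 and 0.62. The ratio of the XRCC4 to the LIG4 value was 0.215, 0.217 and 0.133 in the control and 0.433, 0.171 and 0.471 in the inhibitor samples, so it was high in inhibitor samples 1 and 3 and within the control range in sample 2.

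DCLRE1C, the Artemis nuclease that opens hairpin ends, had 265.8, 286.2 and 269.8 in the control and 208.5, 247.9 and 476.4 in the inhibitor samples. Inhibitor samples 1 and 2 were below all controls and the third was far above them, which left a fitted difference of 0.09 ± 0.30 (SE) with all samples and -0.27 without the third. POLL, a polymerase that fills short gaps, had a difference of 0.04. TP53BP1 and RIF1 act together to keep broken ends from being resected, which favours end joining. TP53BP1 had mean values of 731.1 ± 80.9 and 729.6 ± 43.7 (SD, n = 3). RIF1 (chromosome 2, 151409902 to 151534435) had nearly equal control values of 1156.9, 1154.6 and 1145.2, and 975.6, 1226.5 and 510.6 in the inhibitor samples. The third of these was lower than the median of the other samples by a factor of 2.26. The difference of RIF1 was -0.44 ± 0.30 (SE) with all samples, -0.08 without that sample and -0.71 without inhibitor sample 2, so most of it rested on the third.

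**Figure D2:**
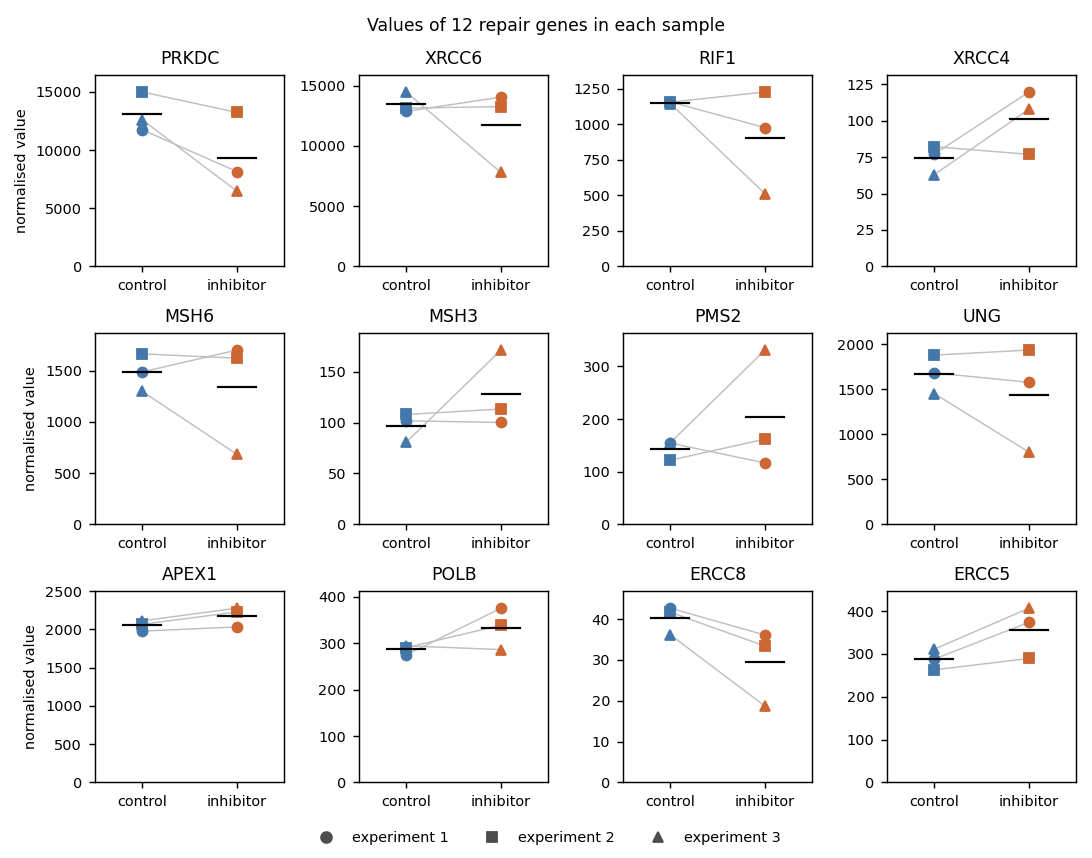
Deposited normalised value (linear axis from 0) of 12 repair genes in each sample. Points are samples, lines join the samples of an experiment, and black bars are group means. In XRCC6, RIF1, MSH6 and UNG the third inhibitor sample lies below the others (7782, 511, 684 and 801), in MSH3 and PMS2 it lies above them (171 and 331), and in ERCC8 the groups meet at 36.2 and 36.1.

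Mismatch repair needs a recognition dimer and a MutL dimer that nicks the new strand. MSH6 is the subunit for base mismatches and small loops, and MSH3 replaces it for larger loops. Of the 5 measured genes, 2 had a fitted difference above 0 and 3 below, none passed limma's test, and the median log2 difference was -0.20. MSH6 (chromosome 2, 47783145 to 47810101) had 1487.6, 1664.1 and 1298.2 in the control and 1701.3, 1622.2 and 683.9 in the inhibitor samples. Inhibitor sample 1 lay above every control and sample 2 within their range. The third was lower than the median of the others by a factor of 2.37. Its difference was -0.26 ± 0.34 (SE; limma adjusted p 0.899) with all samples and 0.17 without the third inhibitor sample, and the sign turned.

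MSH3 (chromosome 5, 80654652 to 80876815) went the other way in that sample. Its values were 101.7, 107.9 and 80.6 in the control and 100.1, 113.3 and 171.2 in the inhibitor samples, a difference of 0.38 ± 0.26 (SE; limma adjusted p 0.899), which was 0.15 without the third inhibitor sample. The ratio of the MSH6 to the MSH3 value was 14.6, 15.4 and 16.1 in the control samples and 17 and 14.3 in inhibitor samples 1 and 2. In inhibitor sample 3 it was 3.99.

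The MutL genes of the list had lower levels than MSH6 in every sample. MLH3 had 257.6, 303.3 and 358.7 in the control and 223.0, 349.1 and 209.6 in the inhibitor samples, with the groups overlapping, and its difference of -0.26 ± 0.24 (SE; limma adjusted p 0.899) was the most negative of the route. With inhibitor sample 3, inhibitor sample 2 or control sample 3 left out it was -0.12, -0.49 or -0.14. PMS1 had mean values of 161.9 ± 47.3 and 137.5 ± 14.6 (SD, n = 3) and a difference of -0.20, which was -0.13 without inhibitor sample 3 and 0.002 without control sample 3. PMS2 (chromosome 7, 5970925 to 6009106), the nuclease subunit of the main MutL dimer, had 154.3, 121.8 and 155.0 in the control and 116.7, 161.9 and 331.1 in the inhibitor samples. The third inhibitor sample exceeded the median of the others by a factor of 2.14. The difference of PMS2 was 0.37 ± 0.37 (SE), and -0.06 without that sample. PMS2 has near-identical pseudogene copies between which reads can be split, so its value is uncertain.

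**Figure D3:**
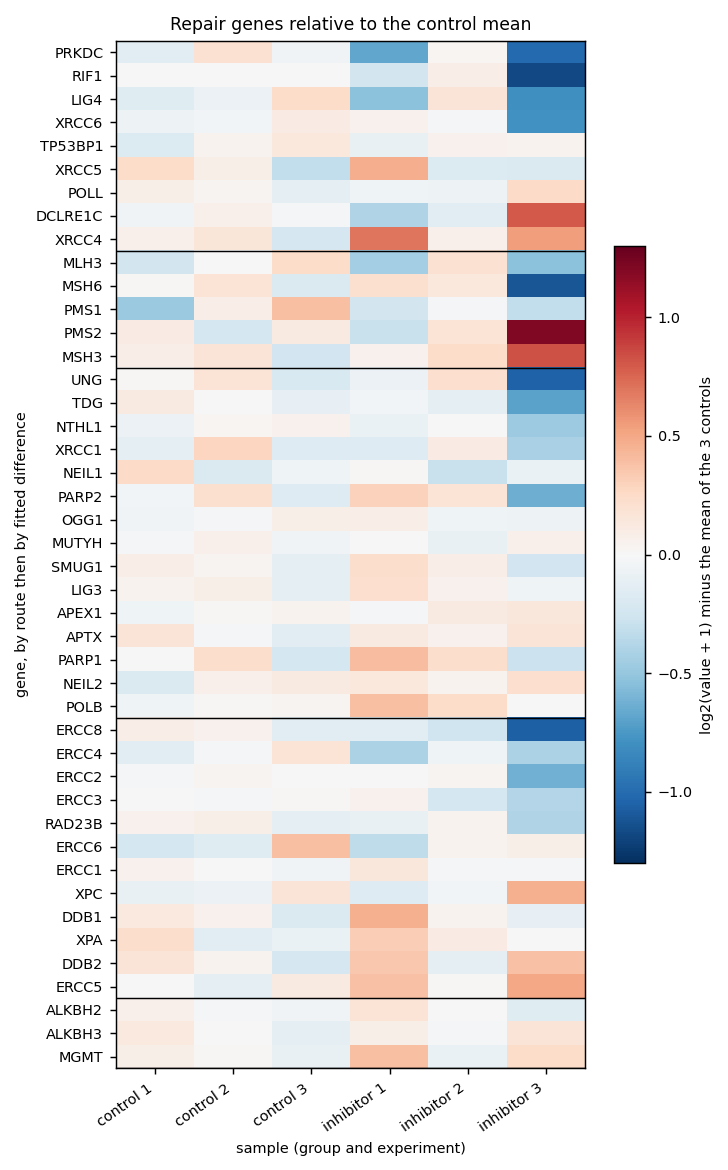
Log2(value + 1) of the 44 repair genes minus the mean of the 3 controls, by sample, with the routes separated by lines and the genes ordered by fitted difference. Red is above and blue below the control mean. The deepest colours are in the column of the third inhibitor sample, blue for RIF1, MSH6, UNG and ERCC8 and red for PMS2, MSH3 and DCLRE1C, while the second inhibitor sample is pale.

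Base excision repair starts with a glycosylase. Of the 15 measured genes of the route, 7 had a fitted difference above 0 and 8 below, none passed limma's test, and the median log2 difference was -0.01. UNG (chromosome 12, 109097597 to 109110992), the main uracil glycosylase, had the highest mean of the glycosylases, with 1682.0, 1879.9 and 1453.2 in the control and 1578.5, 1936.0 and 801.2 in the inhibitor samples. Its value in inhibitor sample 3 was lower than the median of the others by a factor of 2.1, while the other inhibitor values lay near the controls. The difference of UNG, -0.30 ± 0.31 (SE; limma adjusted p 0.899), was the most negative of the route and became 0.07 without that sample. ALKBH2, which lies 4124 bp from UNG on chromosome 12, was lower than the median of the others in that sample by a factor of 1.12.

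TDG, which removes thymine and uracil opposite guanine, was below the controls in the third inhibitor sample (391.3, with controls of 587.1 to 686.8) and had a difference of -0.28 ± 0.19 (SE), which was -0.08 without that sample. SMUG1, another uracil glycosylase, had 0.02. Among the glycosylases for oxidised bases, OGG1 and MUTYH, which act on oxidised guanine and on the adenine paired with it, had differences of -0.01 each, with control means of 113.0 ± 5.15 and 396.2 ± 16.0 and inhibitor means of 112.0 ± 6.73 and 393.0 ± 22.9 (SD, n = 3). These were among the least variable of the 44 genes. NTHL1 had -0.18, which was -0.04 without the third inhibitor sample, and NEIL2 had 0.13. NEIL1 was the lowest gene of the route, with 105.8, 78.0 and 85.8 in the control and 89.8, 72.9 and 84.1 in the inhibitor samples, which overlap, and a difference of -0.12 ± 0.22 (SE; limma adjusted p 0.911).

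The later steps cut, fill and seal the strand. APEX1, the endonuclease for sites that have lost a base, had 1976.6, 2066.8 and 2111.6 in the control and 2031.7, 2226.4 and 2277.1 in the inhibitor samples. It was higher with the inhibitor in all 3 experiments, by 0.04, 0.11 and 0.11 on the log2 scale, while the groups overlapped, and the fitted difference was 0.09 ± 0.11 (SE). POLB, the gap-filling polymerase, had 274.9, 290.5 and 294.6 in the control and 375.8, 339.0 and 286.4 in the inhibitor samples. Inhibitor samples 1 and 2 lay above every control and the third among them. Its difference of 0.21 ± 0.15 (SE; limma adjusted p 0.899) was the most positive of the route. Without the third inhibitor sample it was 0.32, with a limma unadjusted p of 0.0323 and an adjusted p of 0.973.

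PARP1 was the highest gene of base excision repair, with 6190.7, 7221.4 and 5279.6 in the control and 8147.5, 7265.2 and 5108.3 in the inhibitor samples. Inhibitor samples 1 and 2 were above all controls, the third below them, and the difference was 0.12 ± 0.22 (SE; limma adjusted p 0.912), or 0.32 without the third. Its relative PARP2 had a difference of -0.05, or 0.24 without the third inhibitor sample, and was lower than the median of the others by a factor of 1.75 in the third inhibitor sample. The ratio of the PARP1 to the PARP2 value was 12.2, 12 and 11.3 in the control and 12.6, 12.3 and 15.1 in the inhibitor samples. Among 9 ratios between partner genes it was the only 1 whose groups did not overlap. The nearest values of the groups were 12.2 in control sample 1 and 12.3 in inhibitor sample 2. No share over other pairs of genes was computed. XRCC1, the scaffold of single-strand break repair, and its ligase LIG3 had differences of -0.16 (-0.03 without the third inhibitor sample) and 0.07, and APTX, which clears ends left by failed ligation, had 0.12.

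Nucleotide excision repair recognises a lesion in the whole genome with XPC and RAD23B, aided by DDB1 and DDB2, or in transcribed strands with ERCC6 and ERCC8. Of the 12 genes, 6 had a fitted difference above 0 and 6 below, none passed limma's test, and the median log2 difference was -0.02. ERCC8 (ENSG00000049167.13; chromosome 5, 60866454 to 60945070) had 42.7, 41.7 and 36.2 in the control and 36.1, 33.4 and 18.7 in the inhibitor samples. It was the only 1 of the 44 genes (2.27%) whose groups did not overlap with the inhibitor lower, beside 2.90% of all genes, and 0 had groups that did not overlap with the inhibitor higher, beside 2.71%. The nearest values of the groups, control sample 3 and inhibitor sample 1, both came from an adjusted count of 35, so the gap between them was that of the scaling factors. The difference of ERCC8 was -0.49 ± 0.34 (SE; limma adjusted p 0.899), and -0.20 without the third inhibitor sample, which had 18 adjusted counts. NDUFAF2, whose start lies 135 bp away on the other strand, had 301.2 to 333.9 in the control samples and 338.6, 323.8 and 222.1 in the inhibitor samples, and was thus also lowest in the third.

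RAD23B was the highest gene of the route, with 4228.1, 4302.3 and 3724.0 in the control and 3820.8, 4197.8 and 3118.8 in the inhibitor samples. It was lower with the inhibitor in all 3 experiments with overlapping groups, and its difference was -0.15 ± 0.16 (SE; limma adjusted p 0.899), or -0.03 without the third inhibitor sample. XPC, which RAD23B stabilises, had 466.0 in the third inhibitor sample, above the control range of 316.7 to 381.4, and a difference of 0.09, or -0.10 without that sample. The ratio of the RAD23B to the XPC value was therefore lowest in that sample, 6.69, beside 9.76 to 13.3 in the controls. DDB1 and DDB2, the subunits that bind ultraviolet lesions, had differences of 0.13 and 0.21, and ERCC6, the partner of ERCC8 in transcribed strands, had -0.07.

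TFIIH unwinds the strand through its helicases ERCC3 and ERCC2, and XPA checks the damage. ERCC2 and ERCC3 had differences of -0.20 and -0.18, which were 0.02 and -0.085 without the third inhibitor sample. ERCC2 had closely spaced control values, 646.6 to 676.1, as did inhibitor samples 1 and 2 (661.7 and 678.0), and 426.6 in the third. XPA was higher with the inhibitor in all 3 experiments, by 0.09, 0.26 and 0.08, with mean values of 546.2 ± 79.1 and 601.3 ± 68.5 (SD, n = 3).

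The strand is then cut by ERCC5 on one side and by the dimer of ERCC1 and ERCC4 on the other. ERCC5 (chromosome 13, 102846032 to 102875995) had 288.0, 262.8 and 311.1 in the control and 373.7, 289.4 and 406.8 in the inhibitor samples. It was higher in all 3 experiments, by 0.38, 0.14 and 0.39, but inhibitor sample 2 lay within the control range. Its difference of 0.30 ± 0.17 (SE; limma adjusted p 0.899) was the most positive of the route and was 0.20 without the third and 0.44 without the second inhibitor sample. An annotated readthrough transcript with BIVM shares the exons of ERCC5, so its value is uncertain. ERCC4 had the lowest mean of all 44 genes, with 31.2, 34.2 and 39.3 in the control and 25.8, 33.4 and 25.9 in the inhibitor samples. Inhibitor sample 2 lay within the control range and the other inhibitor samples below it, with a difference of -0.29 ± 0.29 (SE; limma adjusted p 0.899). ERCC1, its partner, had 0.04, and mean values of 698.8 ± 25.8 and 717.5 ± 48.3 (SD, n = 3).

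Direct reversal had 3 genes, all with a fitted difference above 0, none past limma's test, and a median of 0.08. MGMT, which takes an alkyl group from guanine onto itself, was the lowest and had the most positive difference. Its values were 258.5, 246.7 and 229.5 in the control and 321.1, 230.7 and 289.6 in the inhibitor samples, with sample 2 among the controls, and its difference was 0.18 ± 0.17 (SE; limma adjusted p 0.899). ALKBH2 was the highest, with 487.4, 462.5 and 451.7 in the control and 529.6, 468.6 and 419.3 in the inhibitor samples and a difference of 0.01 ± 0.14 (SE; limma adjusted p 0.987). ALKBH3, a demethylase like ALKBH2, had 0.08.

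**Figure D4:**
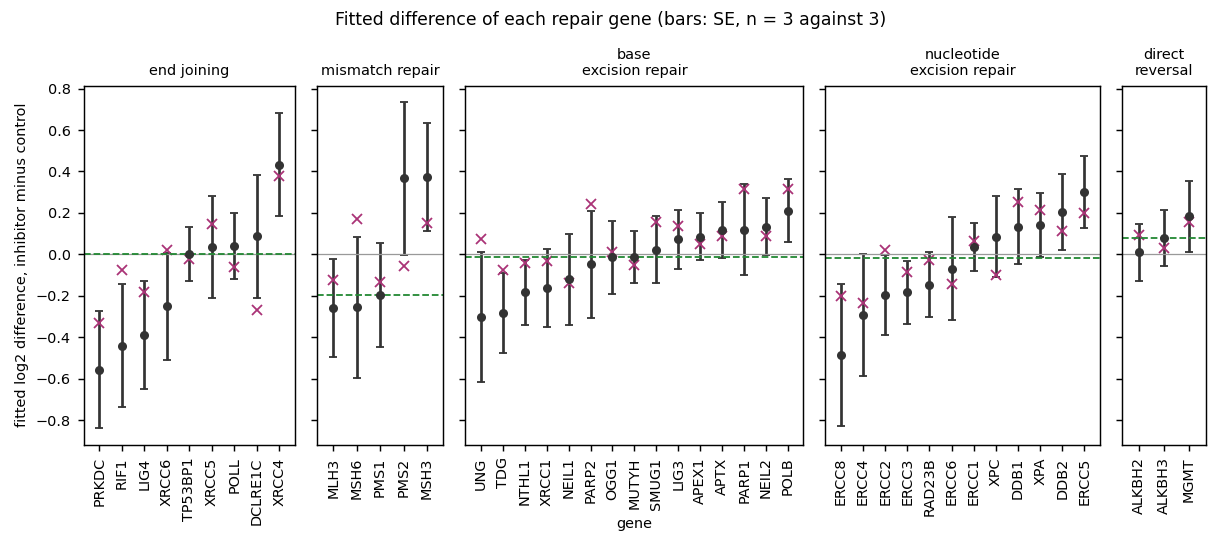
Fitted log2 difference (inhibitor minus control) of each repair gene with its SE as a bar (n = 3 per group), by route. Dashed lines are the medians of the routes and crosses are the fits without the third inhibitor sample. The differences run from -0.56 (PRKDC) to 0.43 (XRCC4), and for 11 genes, MSH6, UNG, PMS2 and DCLRE1C among them, the cross lies on the other side of 0. The share of all tested genes that turned was not computed.

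Compared with each other, the 4 main routes had median differences of 0.001 (end joining), -0.20 (mismatch repair), -0.01 (base excision) and -0.02 (nucleotide excision). The SD between samples of the median of a route, taken about the group means, was 0.08, 0.19, 0.08 and 0.04 in that order, which exceeded the size of the median in every route but mismatch repair, where the SD was 0.193 and the median -0.196. The median of mismatch repair rests on 5 genes and moved with the sample. It was 0.01, 0.09 and 0.12 above the control mean in control samples 1, 2 and 3, -0.24, 0.18 and -0.32 in the inhibitor samples, 0.002 in the fit without control sample 3 and -0.06 in the fit without inhibitor sample 3. That fit gave medians of -0.06 in end joining, 0.07 in base excision repair, where the sign turned, and -0.002 in nucleotide excision repair. In end joining the sum of the values was 23303.1 in the third inhibitor sample and 35236.9 to 39040.0 in the others. XRCC6 and PRKDC held most of the sum and were lowest in that sample. Against inhibitor sample 1 the gap also came from XRCC5, with 10545.7 there and 6674.5 in the third. The range of the differences was -0.56 to 0.43 in end joining and -0.26 to 0.38 in mismatch repair, and narrower in base excision repair, from -0.30 to 0.21. In nucleotide excision repair it was -0.49 to 0.30. No test of 1 route against another was run.

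**Figure D5:**
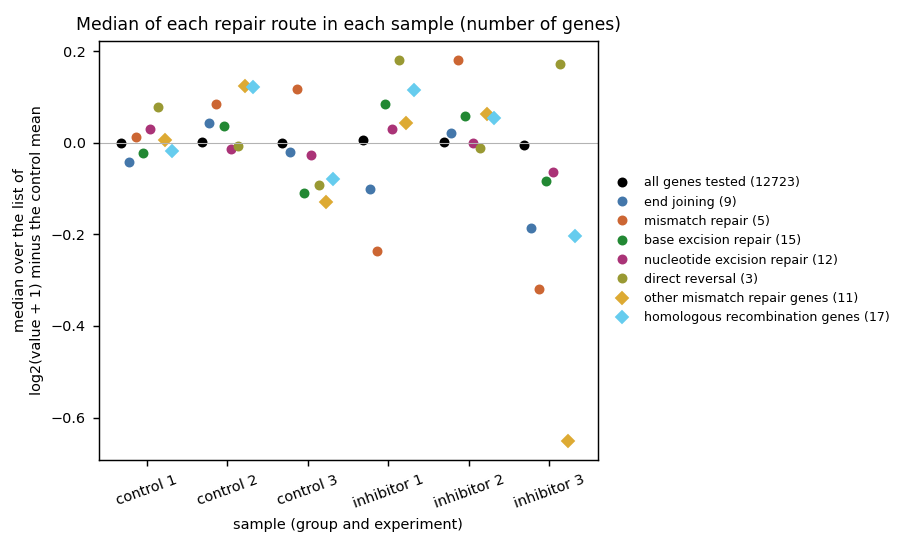
Median over each list of log2(value + 1) minus the control mean, in each sample. Circles are all tested genes and the routes, and diamonds are other mismatch repair genes and homologous recombination genes, with the number of genes in the legend. In the third inhibitor sample mismatch repair lies at -0.32 and the other mismatch repair genes at -0.65, while the median of all genes stays within 0.01 of 0 in every sample.

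The direction within experiments was counted because the samples of an experiment share a number. Lower in all 3 experiments were 8 of the 44 genes (18.2%), beside 12.2% of all genes. They were PRKDC, TDG, NTHL1, NEIL1, XRCC1, RAD23B, ERCC4 and ERCC8. Higher in all 3 were 3 (6.82%), APEX1, XPA and ERCC5, beside 12.2% of all genes. Some of these steps were very small, such as -0.004 for NTHL1 in experiment 1. In experiments 1, 2 and 3, 24, 19 and 19 of the 44 genes were higher with the inhibitor. The median size of the difference of a repair gene was 0.16, 0.09 and 0.35 on the log2 scale in the 3 experiments, beside 0.17, 0.09 and 0.45 for all genes, so experiment 2 had the smallest differences and experiment 3 the largest.

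The third inhibitor sample had 4 of the 44 genes (9.09%) more than 2-fold away from that median, beside 16.0% of all genes. These were RIF1, MSH6 and UNG, which were lower, and PMS2, which was higher. In each of the other 5 samples the count was 0. In the third inhibitor sample 28 of the 44 genes lay below the median of the others. This was a larger share than the 50.3% of all genes, and was not tested. By route it was 5 of 9 in end joining, 3 of 5 in mismatch repair, 11 of 15 in base excision, 8 of 12 in nucleotide excision and 1 of 3 in direct reversal. With that sample left out, the groups did not overlap in 2 genes with the inhibitor higher, POLB and PARP1 (4.55%, beside 6.90% of all genes), and in 2 with the inhibitor lower, DCLRE1C and ERCC8 (4.55%, beside 7.20%). No gene passed the adjusted test in that fit either. At an unadjusted p below 0.05 it gave 177 of all genes (1.41%) and 1 of the 44 (2.27%), POLB. The sign of the fitted difference turned in 11 of the 44 genes, namely XRCC6, DCLRE1C, POLL, TP53BP1, MSH6, PMS2, UNG, OGG1, PARP2, XPC and ERCC2. Some of these differences were near 0 with all samples, such as 0.001 for TP53BP1. The share of all tested genes that turned was not computed, so the count cannot be read as a trait of the repair genes. With inhibitor sample 2 left out instead, an unadjusted p below 0.05 was reached by 6 of the 44 genes (13.6%), beside 10.7% of all genes. These were PRKDC, LIG4, RIF1, MLH3, XRCC4 and ERCC5, each with a limma adjusted p of 0.467.

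Other genes of the same pathways were read from the same fit. None of them passed limma's adjusted test or an unadjusted p of 0.05. Of all tested genes 49.4% had a fitted difference above 0, and no list was tested against that share. Of 11 other mismatch repair genes (the exonuclease, the sliding clamp and its loader, and the DNA polymerase delta subunits), 1 was higher and 10 were lower, with a median of -0.20. Their median in the third inhibitor sample was -0.65 from the control mean, and in the other inhibitor samples it was 0.04 and 0.06. Many of these genes also serve DNA replication. Of 16 tested genes among 17 other nucleotide excision genes, 13 were higher, with a median of 0.11, and the medians of the inhibitor samples were 0.22, 0.03 and 0.05, where control samples 1, 2 and 3 had 0.05, 0.08 and -0.11. Of 7 tested among 12 other end-joining genes 1 was higher (median -0.08), of 11 other base excision genes 5 were higher (median -0.005), and of 3 other direct reversal genes 0 were higher (median -0.05). Of 17 tested homologous recombination genes 7 were higher, with a median of -0.08 and of -0.20 in the third inhibitor sample.

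Neighbouring genes bear on how a value is read. A tested gene starts head to head within 1000 bp of 14 of the 39 repair genes with a promoter entry. In 10 of these 14 pairs the fitted differences had the same sign, some of them near 0. The share over all head-to-head pairs was not computed. XRCC6 and DESI1, whose starts lie 252 bp apart, had differences of -0.25 and -0.28, and DESI1 was also lowest in the third inhibitor sample (1104.3, with 1992.8 to 2111.2 in the others). XRCC4 and TMEM167A, 153 bp apart, had 0.43 and -0.002. Of the 44 genes, 11 overlap another gene of the table, MSH6, MSH3, RIF1, DCLRE1C and ERCC2 among them, and the sources used here do not state whether strand was used in counting, so reads of such pairs may not be told apart.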

How the data were processed

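A table of messenger RNA values was analysed, with 6 OE19 samples grouped by their titles into negative control (3) and miR-451a inhibitor (3). The authors made polyadenylated, stranded, paired-end libraries, trimmed reads with cutadapt 1.8, inspected them with FastQC 0.11.8 and aligned them to GRCh38 with STAR 2.7.0f. EDASeq served to adjust gene counts for length and GC content within samples, and DESeq2 to scale between samples. Neither the counting tool nor the annotation version is given in the sources used here. Deposited values are a normalised signal per gene and not raw counts. Divided by the smallest value above 0 of a sample, 100% came out whole within a relative tolerance of 1e-06. These adjusted counts are not reads. Some of the highest genes share a value in a sample, such as PRKDC and PARP1 in inhibitor sample 1. Fold changes of such genes may follow the spacing of ranks, which was not tested.

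The test was limma 3.58.1 in R 4.3.3 (eBayes with trend, two-sided, no block) on log2(value + 1) of genes whose mean value was 10 or more, with Benjamini-Hochberg adjustment over 12723 genes and a threshold of 0.05. This scale understates the change of low genes. The Mann-Whitney test that the study names cannot go below a two-sided exact p of 0.1 here. The repair genes and the lists were chosen with earlier results of these data known. Lists are described by counts and medians. Every measured repair gene is named. Values in every sample are given, within each route, for the highest and lowest mean and the most positive and most negative difference, and for genes whose groups do not overlap, and values of other genes were added after they had been seen. Numbers in the headers and the series design mark shared experiments and were read as a pairing. Across genes, deviations from the group mean correlated between same-numbered samples at 0.21, 0.15 and -0.004. Between samples of different number the correlations ran from -0.38 to 0.227, the highest being that of control sample 3 with inhibitor sample 2. These values thus do not set the same-numbered samples apart. Alternatives were other pseudocounts, filters, scaling, sample weights, a variance prior without trend, the replicate block, each sample left out, and DESeq2 1.42.0 and edgeR 4.0.16 on the adjusted counts. P-values set a difference against the spread between these samples. On simulated counts for 12723 genes, 48 of 100 genes changed 2-fold and 94 of 100 changed 4-fold were recovered, with 7 false calls. A change was given only to genes averaging 50 or more, so levels like those of ERCC4 and ERCC8 were not covered. No simulated sample was made to stand apart as inhibitor sample 3 does. The recovery rates are therefore not the sensitivity of the real comparison. The search for miR-451a seed sites was not run, because the mature sequence was not in the references used here. Coordinates and promoters are those of RefSeq (GRCh38.p14), matched by symbol. A marker of the blood cell list is not reported here.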

Additional observations from a re-analysis of the deposited data

How the results depend on the processing

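Under each of the 16 alternatives no repair gene and no other gene passed an adjusted p of 0.05. The smallest adjusted p of a repair gene under any of them was 0.467, shared by PRKDC, LIG4, RIF1, MLH3, XRCC4 and ERCC5 without inhibitor sample 2 (limma). Of 176 counts and route medians under the alternatives, 157 stayed near the main value. For a median this meant a move smaller than its SD between samples, and for a count a value within a set ratio of the main count. The counts at the adjusted threshold are among them and were the same in every setting, because no gene passed. At an unadjusted p below 0.05, all genes gave 76 with a mean value of at least 50, 315 with sample weights, 181 without trend, 250 with DESeq2, 163 with edgeR, 128 with the replicate block and 42 to 1360 with 1 sample left out, where 1360 was without inhibitor sample 2. Repair genes gave 0 with DESeq2 and with edgeR, 1 with the replicate block (PRKDC), 1 with sample weights (POLB) and 0 to 6 with 1 sample left out. The 6 were the genes just named, without inhibitor sample 2, and 1 (POLB) without inhibitor sample 3. The replicate block changed no adjusted call. The number of repair genes with a difference above 0 ranged from 17 to 25 with 1 sample left out.

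The median of mismatch repair was -0.003 with sample weights and that of nucleotide excision repair was 0.061 with a mean value of at least 50, a filter that removes ERCC4 and ERCC8. With 1 sample left out the medians ranged from -0.046 to 0.028 over all repair genes, from -0.184 to 0.023 in end joining, from -0.278 to 0.002 in mismatch repair, from -0.063 to 0.072 in base excision repair, from -0.042 to 0.025 in nucleotide excision repair and from 0.016 to 0.143 in direct reversal. The sign was the same under all alternatives in 22 genes and turned under at least 1 in the other 22, and none of these differences had passed the test. The matching share of all tested genes was not computed. With sample weights the difference was -0.240 for DCLRE1C, 0.031 for OGG1, 0.085 for PARP2, -0.068 for POLL, -0.031 for TP53BP1 and -0.024 for XPC. TP53BP1 had -0.005 with TMM scaling, -0.006 with edgeR and a value that rounds to -0.0 with DESeq2. With 1 sample left out the ranges were -0.075 to 0.093 for ALKBH2, -0.267 to 0.327 for DCLRE1C, -0.029 to 0.251 for DDB1, -0.018 to 0.066 for ERCC1, -0.313 to 0.021 for ERCC2, -0.186 to 0.127 for ERCC6, -0.002 to 0.136 for LIG3, -0.486 to 0.171 for MSH6, -0.053 to 0.031 for MUTYH, -0.215 to 0.003 for NEIL1, -0.063 to 0.023 for OGG1 and -0.021 to 0.316 for PARP1. They were -0.226 to 0.241 for PARP2, -0.435 to 0.002 for PMS1, -0.055 to 0.694 for PMS2, -0.062 to 0.092 for POLL, -0.080 to 0.156 for SMUG1, -0.089 to 0.070 for TP53BP1, -0.563 to 0.072 for UNG, -0.102 to 0.209 for XPC, -0.184 to 0.157 for XRCC5 and -0.406 to 0.019 for XRCC6. The cause of these changes was not tested. Depth limits ERCC4 and ERCC8 most, which had 18 to 52 adjusted counts a sample.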
